A study of Mus musculus with 16 samples.

Results

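Transcript levels of 9 genes of triglyceride (TG) synthesis were examined in mouse liver: *Gpam*, *Agpat2*, *Agpat3*, *Lpin1*, *Lpin2*, *Lpin3*, *Dgat1*, *Dgat2* and *Mogat1*. They were taken by symbol from a table of 46078 genes, and all 9 passed the filter on low counts that left 15075 genes for testing. The question addressed was how the enzymes that join fatty acids to glycerol differed between fed and fasted liver and between diets. Livers came from male mice of the strain labelled C56B6/J, 8 weeks old when the diets began, that had spent 16 weeks on a control diet (CD) or on a high-fat diet (HFD) with 60% of its kcal as fat. Feeding continued to the end or was withheld for 16 h, and the 4 groups (CD fed, CD fast, HFD fed and HFD fast) held 4 libraries each. No label names a transgene or deletion. The labels number the libraries but do not name the animals, so p-values measure the spread between these libraries.

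TGs are made in the liver mainly through the glycerol-3-phosphate route. A glycerol-3-phosphate acyltransferase (GPAT) adds the first fatty acid, an acylglycerol-phosphate acyltransferase (AGPAT) adds the next and makes phosphatidic acid, a lipin removes the phosphate to give diacylglycerol, and a diacylglycerol acyltransferase (DGAT) adds the last fatty acid. Monoacylglycerol acyltransferase, encoded by *Mogat1*, reaches diacylglycerol by a separate route from monoacylglycerol. Each step is shared by several isoenzymes with different substrates, membranes and regulation, and diacylglycerol is also the branch point to the membrane phospholipids.

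The 16 libraries held 41364448 to 57583153 counts. Levels are given in CPM (counts scaled to a common library total with TMM factors), and the detection floor of 3 counts lay between 0.0536 and 0.0767 CPM. The hepatocyte markers *Alb*, *Apoa1*, *Ttr*, *Cps1* and *Tat* summed to 101874 to 134723 CPM in CD fed and 86209 to 107172 CPM in CD fast, and to 106524 to 135795 CPM in HFD fed against 68792 to 100064 CPM in HFD fast, where every library was below both fed groups. Most of this sum was *Alb*, and in CD the mean levels of *Apoa1* (8982 CPM fed, 10850 fasted), *Cps1* (5700 and 6295) and *Tat* (1499 and 2471) were higher in fasted liver while those of *Alb* (91964 and 71997) and *Ttr* (7467 and 3944) were lower. In HFD the means of all 5 were lower in fasted liver. The 4 muscle markers summed to at most 0.0657 CPM. The 4 enterocyte markers summed to 65.4 to 92.8 CPM in CD fed against 156 to 236 CPM in CD fast, and to 91.7 to 113 CPM in HFD fed against 129.6 to 160.4 CPM in HFD fast. Nearly all of this was *Fabp2*, while *Vil1* was at most 0.909 CPM, *Alpi* was at 0 in 13 libraries and *Sis* in all 16. The 4 adipocyte markers summed to 0.356 to 6.99 CPM outside HFD fast and to 2.08 to 70.3 CPM within it, where the highest library owed its sum to *Cfd*, since *Adipoq* stayed at or below 0.976 CPM in all libraries. The 5 Kupffer cell markers summed to 90.1 to 143 CPM in CD fast against 144 to 225 CPM in CD fed, and overlapped in HFD (113 to 198 CPM fasted, 155 to 199 CPM fed). The 3 erythrocyte markers summed to 269.9 to 346 CPM fed and 172 to 304 CPM fasted on CD, and to 238 to 266 CPM fed and 254 to 402 CPM fasted on HFD, and the 4 acinar markers to at most 1.78 CPM. The part of these shifts in the results was not tested. In whole liver, fewer cells of a type and less RNA per cell cannot be told apart.

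Among the 9 genes, *Lpin1* had the largest fasting change on the log2 scale on both diets. In CD, fasting raised *Agpat3* and *Dgat1* and lowered *Lpin1*, so that 3 of 9 passed edgeR's quasi-likelihood test (Benjamini-Hochberg adjusted p under 0.05), where 25.2% of all genes tested passed. In HFD, *Lpin1* alone passed, where 8.86% of all genes did. HFD lowered *Gpam* in fed liver, the only one of 9 against 7.50% of all genes, and lowered *Dgat1* in fasted liver, again the only one of 9 against 7.70% of all genes. None of the 9 passed the test of the diet by fasting interaction, which 2.59% of all genes did. The count for the interaction was 4 of 9 at an unadjusted p under 0.05 in edgeR (20.2% of all genes), 3 at an adjusted p under 0.05 in DESeq2 (6.77% of all genes) and 1 in limma-voom (2.37%). The median log2 change of the 9 genes was 0.25 with fasting in CD and 0.06 with fasting in HFD, where the medians of all genes tested were -0.01 and 0.01. The 4 libraries of the groups compared did not overlap for 3 of 9 genes when fasting was compared in CD (25.4% of all genes) and for 3 in HFD (16.7%), nor for 2 when the diets were compared in fed liver (15.7%) and 2 in fasted liver (14.0%).

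**Figure D1:**
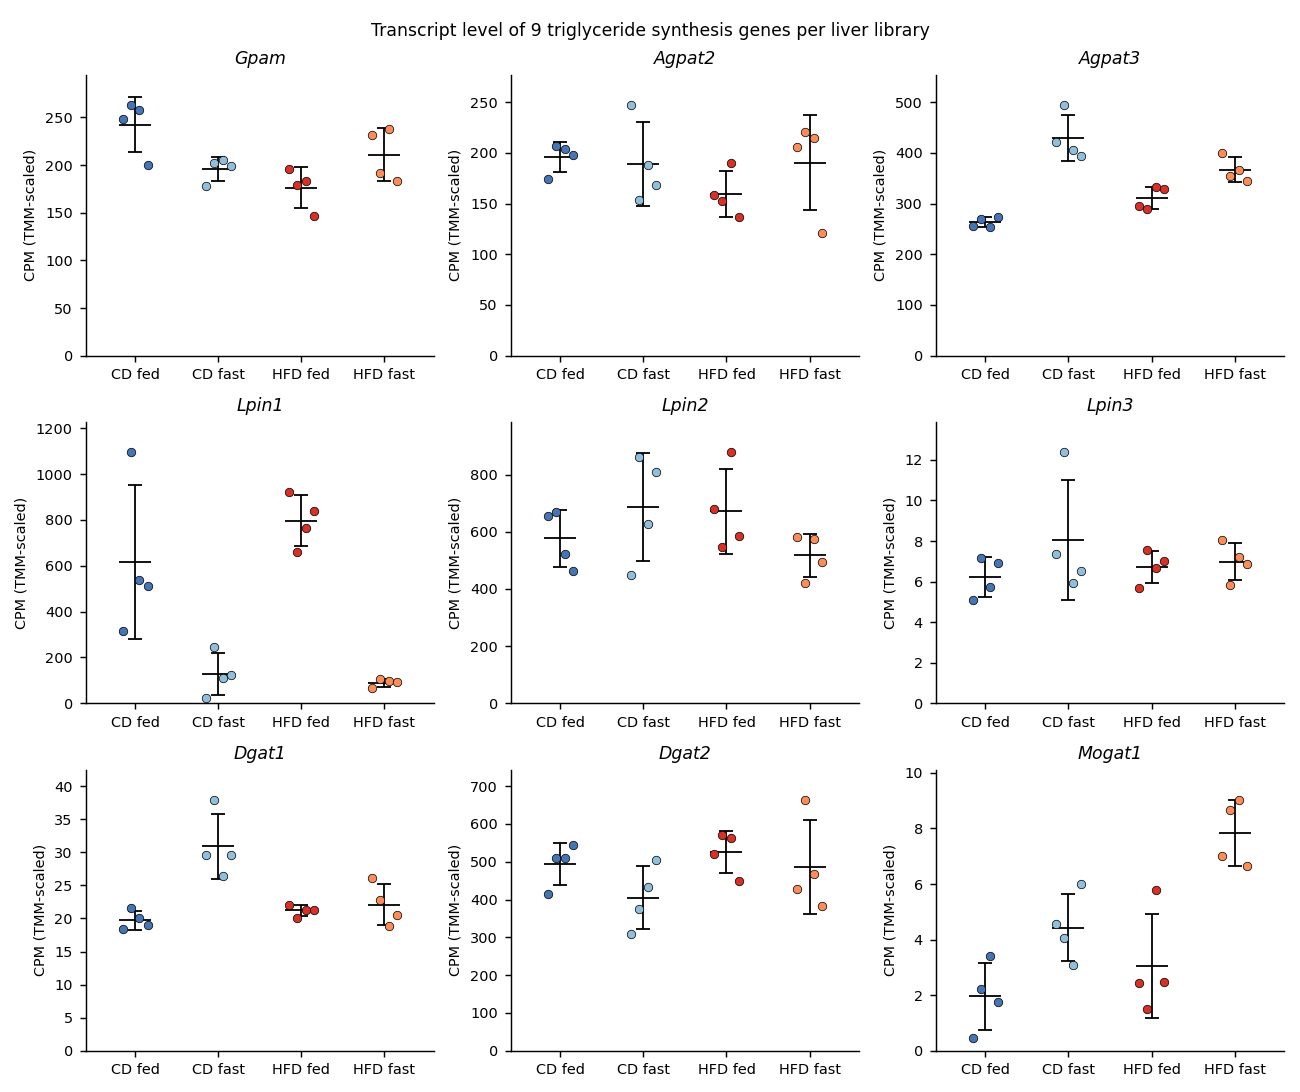
TMM-scaled CPM (linear axis from 0) of the 9 genes in each of the 16 libraries, by group. Points are libraries, the horizontal mark is the group mean and the bar its SD (n = 4). The fasted libraries of *Lpin1* lie at 24.5 to 245 CPM, below all fed libraries at 315 to 1096 CPM.

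*Gpam* encodes the GPAT of the outer mitochondrial membrane, an enzyme of the committed step that insulin and SREBP-1c are known to induce. The gene lies on the minus strand of chromosome 19 at chr19:55067268-55127238 (GRCm38), with 6664 bases of exon in GENCODE M21. RefSeq lists a pair of start sites for it on GRCm38.p6. Promoters are printed here, as 250 bases before to 50 after a start site, with capitals marking matches to 6 motifs searched on both strands. They are given for the genes called in a fasting or diet comparison for which the RefSeq table had an entry (*Gpam*, *Agpat3* and *Lpin1*, while *Dgat1* had none). The motifs were the E-box CACGTG, the sterol response element TCACNCCAC, the cyclic AMP response element TGACGTCA, the NF-Y box CCAAT, the TATA box TATAAA and the GC box GGGCGG. The upstream start site of *Gpam* (chr19:55127189-55127488, minus strand) had an NF-Y box beginning 74 bases before the start, a motif held by 37.4% of 32851 promoters of this length, and the downstream start site (chr19:55099428-55099727, minus strand) a GC box beginning 16 bases before the start, held by 35.7%.
Gpam, upstream start site: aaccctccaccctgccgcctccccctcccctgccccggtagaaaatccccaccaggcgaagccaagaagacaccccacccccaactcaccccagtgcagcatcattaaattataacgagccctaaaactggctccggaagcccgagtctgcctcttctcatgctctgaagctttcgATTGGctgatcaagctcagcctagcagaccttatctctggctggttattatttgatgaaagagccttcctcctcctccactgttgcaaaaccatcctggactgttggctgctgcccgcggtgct
Gpam, downstream start site: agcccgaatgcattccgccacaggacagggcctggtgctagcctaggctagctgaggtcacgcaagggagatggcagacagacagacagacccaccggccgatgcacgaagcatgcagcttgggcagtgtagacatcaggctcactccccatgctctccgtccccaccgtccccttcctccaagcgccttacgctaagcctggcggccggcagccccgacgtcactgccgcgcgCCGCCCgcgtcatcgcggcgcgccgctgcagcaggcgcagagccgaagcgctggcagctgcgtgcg

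*Gpam* was measured in CD fed libraries at 248, 263, 258 and 200.4 CPM and in HFD fed libraries at 196, 179, 183 and 146 CPM. Every HFD fed library was below every CD fed library. HFD lowered *Gpam* in fed liver by 0.46 on the log2 scale (SE 0.11, edgeR adjusted p = 0.0243), from 243 ± 28.7 to 176 ± 21.3 CPM (SD, n = 4). The call was lost when CD fed replicate 1, 2 or 3 or HFD fed replicate 3 or 4 was left out, with an adjusted p of up to 0.0808 without CD fed replicate 2 and a log2 change between -0.54 and -0.38 over all 16 such fits. In the fasted groups the libraries read 178, 202, 206 and 199 CPM in CD and 231, 191, 238 and 183 CPM in HFD. These values overlapped, and the difference was 0.10 (95% interval -0.14 to 0.35, adjusted p = 0.603), and leaving out HFD fast replicate 3 made it 0.04 and replicate 4 made it 0.17. The fasting change of *Gpam* was -0.31 in CD (adjusted p = 0.0614) and 0.26 in HFD (adjusted p = 0.166). The former passed with DESeq2 (adjusted p = 0.0412), total count scaling (adjusted p = 0.0268) and the replicate number as a block (adjusted p = 0.0389). It also passed in edgeR without CD fed replicate 4 (adjusted p = 0.0260) or HFD fed replicate 4 (adjusted p = 0.0447). The difference between the diets in this change was 0.56 (SE 0.16) and did not pass the edgeR test (adjusted p = 0.0727), while it did in DESeq2 (adjusted p = 0.0228) and with total count scaling (adjusted p = 0.0334), and in edgeR without CD fed replicate 4 (adjusted p = 0.0476).

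*Agpat2* and *Agpat3* encode acyltransferases of the next step in the endoplasmic reticulum. Loss of AGPAT2 causes congenital lipodystrophy, and AGPAT3 is known for placing polyunsaturated fatty acids into phosphatidic acid. *Agpat2* lies at chr2:26593057-26604417 on the minus strand, where 64 of its 2130 exon bases are shared with *Egfl7* on the opposite strand. *Agpat3* lies at chr10:78269178-78352489 on the minus strand and has 7790 exon bases. Its promoter (chr10:78351651-78351950, minus strand, GRCm38.p6) had no match to the 6 motifs.
Agpat3: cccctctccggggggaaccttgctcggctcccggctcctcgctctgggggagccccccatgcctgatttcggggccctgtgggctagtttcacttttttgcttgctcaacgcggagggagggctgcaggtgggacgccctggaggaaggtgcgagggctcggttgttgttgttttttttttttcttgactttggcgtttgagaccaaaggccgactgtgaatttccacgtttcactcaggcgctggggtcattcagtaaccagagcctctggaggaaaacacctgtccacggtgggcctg

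On CD, *Agpat3* stood at 256, 269, 253 and 274 CPM in fed libraries and at 422, 495, 406 and 393 CPM in fasted libraries. The groups were far apart relative to their spread, 263 ± 9.99 against 429 ± 45.5 CPM (SD, n = 4). Fasting in CD raised it 1.63-fold (log2 change 0.71, SE 0.09, edgeR adjusted p = 5.25e-05), the smallest adjusted p among the 9 genes in any of the 5 comparisons, and the call held in all 16 fits that left out a library. The HFD fed libraries read 295, 290, 332 and 328 CPM and the HFD fast libraries 401, 353, 366 and 345 CPM. They did not overlap either, but the change of 0.24 (SE 0.09) did not pass the test (adjusted p = 0.0957). The difference between the diets in the fasting change was -0.47 (SE 0.12, adjusted p = 0.0507), with an adjusted p from 0.00282 (DESeq2) to 0.107 (no filter on low counts) over 8 other settings, 4 of which passed the threshold, as did the fits without CD fast replicate 4 or HFD fast replicate 1. HFD differed from CD by 0.24 in fed liver, where the libraries did not overlap (adjusted p = 0.0953), and by -0.23 in fasted liver (adjusted p = 0.108). In DESeq2 the fasting change in HFD (adjusted p = 0.0464) and both diet differences (adjusted p = 0.0341 and 0.0422) passed.

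*Agpat2* was at 174, 207, 204 and 198 CPM fed and 248, 154, 188 and 168 CPM fasted on CD, and at 159, 152, 190 and 137 CPM fed and 206, 220, 214 and 121 CPM fasted on HFD. All 4 groups overlapped, and HFD fast replicate 4 lay apart from the other 3 libraries of its group. The largest difference between groups in the 4 comparisons was -0.30 for HFD in fed liver (95% interval -0.67 to 0.08, edgeR adjusted p = 0.341).

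The lipins are phosphatidic acid phosphatases that turn phosphatidic acid into diacylglycerol at the endoplasmic reticulum. Lipin 1 also acts in the nucleus as a coactivator with PGC-1α and PPARα, lipin 2 is a major form of liver, and lipin 3 is best known from the intestine. *Lpin1* lies at chr12:16535669-16610966 on the minus strand with 9665 exon bases in 25 blocks, and no other annotated gene overlaps it. The *Lpin1* promoter (chr12:16610917-16611216, minus strand, GRCm38.p6) had no match to the 6 motifs, whereas the E-box occurred at a start site of *Lpin2*, beginning 9 bases before it, and of *Lpin3*, beginning 22 bases after it, against 7.15% of all promoters. A match is a description of letters, and its absence says only that these letters are not in the window.
Lpin1: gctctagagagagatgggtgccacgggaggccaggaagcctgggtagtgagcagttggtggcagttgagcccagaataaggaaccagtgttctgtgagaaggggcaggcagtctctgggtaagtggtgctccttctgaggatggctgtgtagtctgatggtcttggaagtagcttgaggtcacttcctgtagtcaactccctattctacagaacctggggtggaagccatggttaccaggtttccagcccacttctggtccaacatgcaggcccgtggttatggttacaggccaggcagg

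*Lpin1* had the widest range of the 9 genes, 44.6-fold between the lowest and the highest library. The CD fed libraries read 315, 1096, 539 and 511 CPM and the CD fast libraries 24.5, 245, 111 and 125 CPM. The highest fasted library was below the lowest fed library, although the spread within each CD group was wide, with coefficients of variation of 54.6% and 71.8%. Fasting in CD lowered *Lpin1* 4.87-fold (log2 change -2.28, SE 0.49, edgeR adjusted p = 0.00365). Leaving out each library moved this change between -2.82 (without CD fast replicate 2) and -1.85 (without CD fed replicate 2), and it passed the test in all 16 such fits, the largest adjusted p being 0.0144.

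The values of *Lpin1* were tighter in HFD, with coefficients of variation of 14.0% fed and 19.1% fasted. The HFD fed libraries read 924, 661, 766 and 838 CPM and the HFD fast libraries 66.6, 108, 94.9 and 90.5 CPM. Fasting in HFD lowered it 8.87-fold (log2 change -3.15, SE 0.51, adjusted p = 0.00223), and the call held in all 16 fits without a library. The difference between the diets in the fasting change, -0.87, had a 95% interval of -2.28 to 0.54 and did not pass the test (adjusted p = 0.489). It was -0.32 without CD fast replicate 2 and -1.30 without CD fed replicate 2. The diets overlapped in both states, with a log2 difference of 0.37 in fed liver (95% interval -0.62 to 1.37) and -0.49 in fasted liver (95% interval -1.49 to 0.51). The former was 0.16 without CD fed replicate 1 and 0.81 without CD fed replicate 2, and the latter -0.84 without CD fast replicate 1 and 0.05 without CD fast replicate 2.

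*Lpin2* (chr17:71182560-71249817, plus strand) averaged 577 ± 101 CPM fed and 687 ± 189 CPM fasted on CD, and 673 ± 149 CPM fed and 518 ± 75.8 CPM fasted on HFD (SD, n = 4). Its libraries overlapped between all groups and spanned only 2.09-fold in all, from 421 to 879 CPM. Its fasting change was 0.25 in CD (95% interval -0.18 to 0.68) and -0.38 in HFD (95% interval -0.80 to 0.05), and the difference between these changes was -0.63 (unadjusted p = 0.0428, edgeR adjusted p = 0.232). Its change in CD was 0.12 without CD fast replicate 2 and 0.41 without CD fast replicate 1, and that in HFD -0.22 without HFD fed replicate 3. *Lpin3* (chr2:160880670-160906002, plus strand) was low, at 5.09 to 12.4 CPM or 257 to 484 counts in a library. No comparison of *Lpin3* passed the test, and its highest library was CD fast replicate 2, without which the fasting change in CD was 0.08 in place of 0.37.

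Because levels can be compared between genes only per length, the make-up of each enzyme family was taken as shares of the summed CPM per kb of exon. *Lpin1* made up 54.2% ± 12.3 of the lipin transcripts in CD fed liver and 16.4% ± 7.97 in CD fast liver (SD, n = 4). In HFD the share was 59.4% ± 5.30 fed and 17.7% ± 4.72 fasted. The *Lpin2* share was 44.2% and 39.3% in the fed groups and 80.4% and 78.8% in the fasted groups of CD and HFD, in shares that sum to 100% and with no called change of *Lpin2* itself. *Lpin3* remained at or below 4.84% in every library. The summed lipin level was 113 ± 38.7 CPM per kb fed and 71.4 ± 24.7 fasted on CD, and 139 ± 17.9 fed and 53.6 ± 5.22 fasted on HFD. The fasting difference in the *Lpin1* share had an exact two-sided permutation p = 0.0286 on each diet, the smallest that 4 against 4 libraries allow, and an adjusted p = 0.0571 over the 16 share tests, which does not pass 0.05. With p at that bound, the adjusted p depended on how many of the 16 tests reached it, not on the size of this difference.

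**Figure D2:**
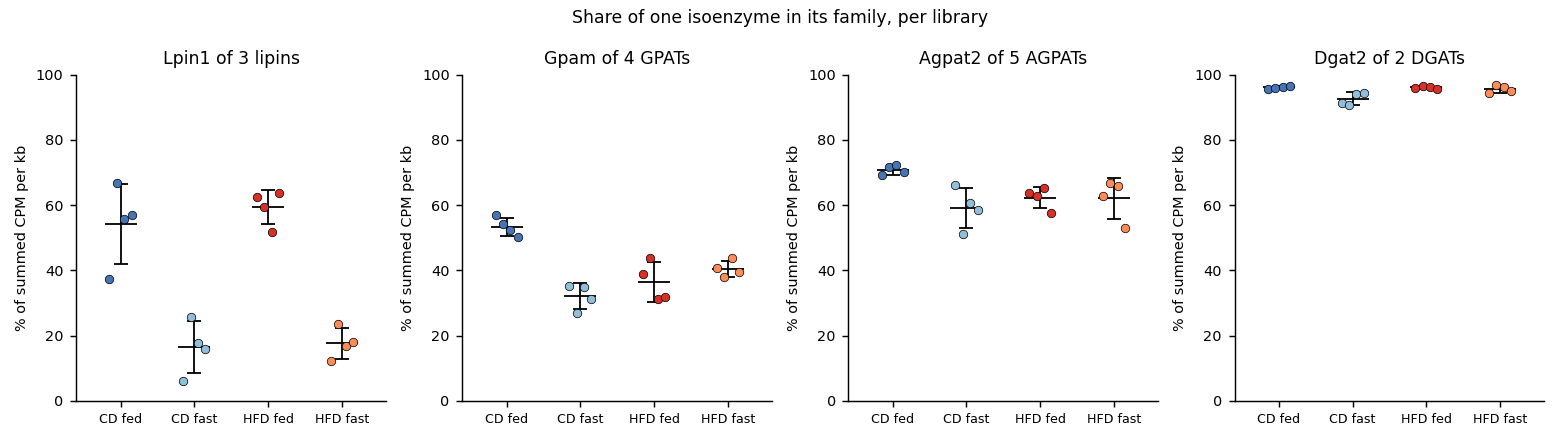
Share of a named isoenzyme in the summed CPM per kb of exon of its family, in percent (axis 0 to 100), for each library. Points are libraries, marks and bars the group mean and SD (n = 4). The *Lpin1* share lies at 37.2 to 66.7% in fed and 6.17 to 25.5% in fasted libraries, and the *Gpam* share is highest in CD fed.

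Counted in the same way, *Gpam* made up 53.4% ± 2.81 of GPAT transcripts fed and 32.0% ± 3.92 fasted on CD, and 36.4% ± 6.04 fed and 40.5% ± 2.52 fasted on HFD (SD, n = 4). The CD fed libraries, at 50.2 to 56.8%, did not overlap those of any other group. The remainder was mostly *Gpat4*, from 44.0% in CD fed to 60.0% in CD fast liver, while *Gpat3* went from 1.18% fed to 7.02% fasted on CD and stood at 6.93% fed and 8.99% fasted on HFD. Fasting in CD, HFD in fed and HFD in fasted liver each reached the smallest exact permutation p = 0.0286 for the *Gpam* share (adjusted p = 0.0571), and fasting in HFD had p = 0.257.

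Within the AGPAT family, summed over *Agpat1* to *Agpat5*, *Agpat2* held 70.8% ± 1.42 fed and 59.1% ± 6.23 fasted on CD, and 62.3% ± 3.34 fed and 62.1% ± 6.23 fasted on HFD (SD, n = 4), and *Agpat3* nearly all the rest. *Lclat1*, named below among further isoenzymes, was not in this sum. Its group means ran from 10.2 CPM per kb in CD fed to 12.9 CPM per kb in CD fast. The CD fed libraries lay above all CD fast and all HFD fed libraries (exact permutation p = 0.0286, adjusted p = 0.0571 for each). As a share of counts, with no correction for the shorter exons of *Agpat2*, the *Agpat2* values were 22.9 to 42.8% over the 16 libraries. *Dgat2* made up 90.8 to 96.7% of the DGAT transcripts in every library, and its share in CD fast, 92.6% ± 1.94, lay below that in CD fed, 96.1% ± 0.387 (same exact p and adjusted p). In all, 8 of the 16 share tests stood at the smallest possible p, and so had the same adjusted p whatever the size of the difference.

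*Dgat1* and *Dgat2* encode unrelated proteins for the last step. DGAT1 is known for re-esterifying fatty acids taken up from outside and DGAT2 for using those made in the cell and for acting at lipid droplets. *Dgat1* lies at chr15:76502015-76511953 and *Dgat2* at chr7:99153658-99182719, both on the minus strand and both free of overlapping genes. *Dgat2* had the highest level per length of the 9 genes, 155 CPM per kb on average over the 16 libraries, against 7.69 for *Dgat1*.

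On CD, *Dgat1* read 18.4, 21.6, 20.04 and 19.0 CPM in fed and 29.6, 37.9, 26.5 and 29.6 CPM in fasted libraries. All fasted libraries were above all fed libraries. Fasting in CD raised it 1.56-fold (log2 change 0.65, SE 0.11, edgeR adjusted p = 0.000739), and the call held in all 16 fits without a library. In HFD the fed libraries read 22.1, 20.1, 21.3 and 21.3 CPM and the fasted libraries 26.1, 22.8, 18.9 and 20.5 CPM. These overlapped, and the fasting change was 0.06 (95% interval -0.18 to 0.29, adjusted p = 0.784).

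Every HFD fast library of *Dgat1* was below every CD fast library. HFD lowered *Dgat1* in fasted liver by 0.49 on the log2 scale (SE 0.11, adjusted p = 0.0165). The call was lost without HFD fast replicate 3 (adjusted p = 0.0558) or replicate 4 (adjusted p = 0.0527) and under scaling by total counts alone, where the change was -0.33 (adjusted p = 0.0518) and the median of all genes shifted by 0.16. It was also lost with only the groups compared in the fit (-0.48, adjusted p = 0.0858). The difference between the diets in the fasting change was -0.59 (SE 0.16, adjusted p = 0.0553) and passed in DESeq2 (adjusted p = 0.0136) and with a CPM above 1 in at least 4 libraries (adjusted p = 0.0488), and in edgeR without CD fast replicate 3 (adjusted p = 0.0353) or HFD fast replicate 1 (adjusted p = 0.0260).

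*Dgat2* read 414, 510.5, 511 and 543 CPM fed and 308, 376, 433 and 505 CPM fasted on CD, and 522, 572, 562 and 449 CPM fed and 429, 664, 467 and 382 CPM fasted on HFD. The groups overlapped throughout. Its fasting change was -0.29 in CD (95% interval -0.65 to 0.08) and -0.12 in HFD (95% interval -0.48 to 0.25), and none of its comparisons passed the edgeR test, the smallest adjusted p being 0.236 in the 5 comparisons. Its change in CD was -0.18 without CD fast replicate 1, and that in HFD was -0.32 when HFD fast replicate 2 was dropped and -0.017 when replicate 4 of that group was.

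*Mogat1* encodes the monoacylglycerol acyltransferase that is known to be induced by PPARγ in fatty liver. It lies at chr1:78510991-78538173 on the plus strand, and 200 of its 1558 exon bases (12.8%) are shared with *BC035947* on the opposite strand, whose reads may not be separable here. It was low, at 26 to 431 counts in a library. The CD fed libraries read 0.474, 2.21, 3.41 and 1.75 CPM, the CD fast libraries 4.58, 4.07, 3.09 and 5.98 CPM, the HFD fed libraries 2.44, 1.49, 5.79 and 2.49 CPM and the HFD fast libraries 7.01, 8.68, 9.04 and 6.66 CPM. Every HFD fast library was above every other library of the study.

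The fasting change of *Mogat1* was 1.18 in CD (SE 0.45, edgeR adjusted p = 0.0656) and 1.37 in HFD (SE 0.44, adjusted p = 0.0645), so that neither passed the threshold. Over 9 other settings the adjusted p ran from 0.0272 to 0.0896 in CD and from 0.0187 to 0.0700 in HFD. The change passed on both diets with DESeq2, with limma-voom and with the replicate number as a block. Of the 16 fits that left out a library, 2 passed on each diet. The change in CD ran from 0.85 (without CD fed replicate 1) to 1.58 (without CD fed replicate 3), with an adjusted p from 0.0274 to 0.155, and passed without replicate 3 of CD fed or of HFD fed. The change in HFD ran from 1.14 (without HFD fed replicate 2) to 1.87 (without HFD fed replicate 3, the highest fed library), with an adjusted p from 0.0235 to 0.165, and passed when replicate 1 of CD fed or replicate 3 of HFD fed was left out. HFD against CD gave 0.63 in fed liver (95% interval -0.32 to 1.59), which was 0.13 without HFD fed replicate 3 and 1.04 without CD fed replicate 3, and 0.82 in fasted liver (95% interval -0.09 to 1.74). The libraries of the latter comparison did not overlap, but it did not pass the test (adjusted p = 0.242). HFD fast against CD fed liver, which differ in both diet and feeding, was higher by a log2 difference with a 95% interval of 1.04 to 2.96 (adjusted p = 0.00523). These groups had the highest and the lowest mean of *Mogat1*, and this comparison was not refitted with libraries left out. Over all 15075 genes tested, 1709 passed as higher and 1750 as lower in it.

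**Figure D3:**
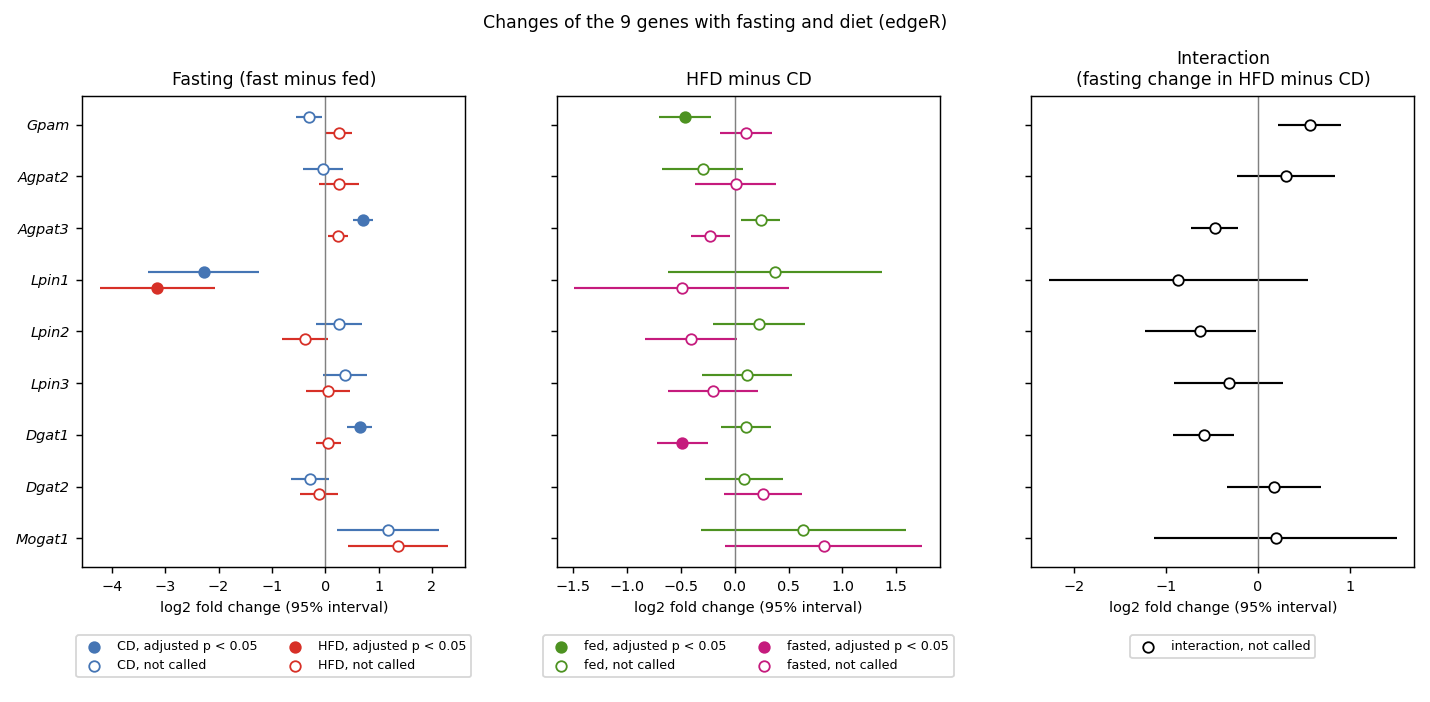
log2 fold changes (points) with 95% intervals (lines) of the 9 genes from edgeR, for fasting in each diet, HFD minus CD in each feeding state, and the interaction. Filled points passed an adjusted p of 0.05 and open points did not. *Lpin1* lies at -2.28 and -3.15 for fasting, and all 9 interaction points are open.

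When the 4 groups were ordered by the mean level of each gene, the neighbours that differed by the edgeR test were CD fed and CD fast for *Lpin1* and CD fast and HFD fast for *Dgat1* (adjusted p = 0.00365 and 0.0165). The other neighbours of the 9 genes did not pass the test, which does not show that they were alike. For *Lpin1* the order was HFD fed (797 ± 111 CPM), CD fed (615 ± 336), CD fast (126 ± 90.8) and HFD fast (89.9 ± 17.1). For *Agpat3* the order was CD fast, HFD fast, HFD fed and CD fed, and no pair of neighbours passed the test although the ends did.

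Among 10975 genes with a mean of at least 100 counts, those whose log2 CPM followed each changed gene most closely over the 16 libraries were named, as a description. The points share groups and libraries, so the correlations mostly follow group means. *Lpin1* was followed by *Lurap1l* (Pearson r = 0.95), *Vegfb* (0.94) and *Tesk2* (0.93). *Agpat3* was followed by *Cyp4a10* (r = 0.97), *Mat1a* (0.96) and *Tmem120a* (0.96). *Dgat1* was followed by *Ccnd3*, *Psmd9* and *Sh2b1* (r = 0.93 each), and *Gpam* by *Tfg* (r = 0.90), *Txndc5* (0.86) and *Uso1* (0.84).

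The rest of the pathway was taken from 5 lists of 38 genes, of which 37 were tested. *Mogat2*, the intestinal paralogue of *Mogat1*, was the exception, with a group mean of at most 0.179 CPM. Fasting in CD changed 15 of 37 (9 higher, 6 lower) where 25.2% of all genes passed, and fasting in HFD changed 6 (8.86% of all genes). HFD changed 6 in fed liver (7.50%) and 2 in fasted liver (7.70%), and the interaction was called for 2 (2.59%). The counts outside fasting in CD depended on single libraries. That for fasting in HFD was 2 without HFD fed replicate 1 (3.31% of all genes in that fit) and 3 without CD fed replicate 3 (7.91%) or without replicate 1 (4.79%) or 3 (4.62%) of HFD fast, and that for HFD in fed liver was 3 without CD fed replicate 2 (3.37%). The count for HFD in fasted liver was 5 without CD fast replicate 1 (4.71%) and 4 without CD fast replicate 3 (6.13%). The count for the interaction was 1 when any 1 of 8 libraries was left out (replicates 2 and 4 of CD fast and of CD fed, 3 and 4 of HFD fast, and 1 and 3 of HFD fed), where 0.963 to 1.81% of all genes passed.

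Of 10 further isoenzymes of the same steps, 5 passed with fasting in CD (25.2% of all genes). Of these, 4 rose (*Gpat3*, *Gpat4*, *Agpat1* and *Lclat1*) and *Agpat4* fell (log2 change -0.53, edgeR adjusted p = 0.0334), a call lost without replicate 1, 3 or 4 of CD fast or replicate 2 or 4 of CD fed. *Agpat4* was low, at 26 to 65 counts in a library, and was higher in HFD than in CD in fasted liver (log2 change 0.77, adjusted p = 0.0163), which did not pass with only the groups compared in the fit (adjusted p = 0.0705). *Plpp3*, a lipid phosphate phosphatase, rose with fasting in HFD by 0.43 (adjusted p = 0.0395), a call lost without CD fed replicate 3 or without replicate 1, 2 or 3 of HFD fast or 1, 3 or 4 of HFD fed. On CD its mean was also higher in fasted liver (231 CPM) than in fed liver (190 CPM). The CD libraries did not overlap, but the change there was not called. *Gpat3*, a GPAT of the endoplasmic reticulum best known from adipocytes, read 2.72, 1.97, 3.69 and 2.86 CPM fed and 16.4, 17.1, 21.6 and 35.6 CPM fasted on CD. The HFD fed libraries read 13.3, 11.1, 31.4 and 17.8 CPM and the HFD fast libraries 28.0, 19.97, 28.3 and 22.4 CPM. CD fed stood apart from the other 3 groups, whose libraries overlapped. Fasting in CD raised *Gpat3* 8.08-fold (log2 change 3.01, SE 0.33, edgeR adjusted p = 2.52e-05) and HFD in fed liver raised it 6.55-fold (log2 change 2.71, SE 0.33, adjusted p = 0.000310).

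*Gpat4*, the other GPAT of the endoplasmic reticulum, was at 177, 215, 221 and 188 CPM fed and 292, 513, 337 and 367 CPM fasted on CD, and at 278, 203, 339 and 274 CPM fed and 279, 268, 245 and 232 CPM fasted on HFD. Fasting in CD raised it 1.88-fold (log2 change 0.91, SE 0.17, adjusted p = 0.00120). *Agpat1* rose with fasting in CD by 0.53 (SE 0.09, adjusted p = 0.000585) and with HFD in fed liver by 0.34 (adjusted p = 0.0282). The latter call was lost in 5 of the 16 fits that left out a library, which lacked replicate 1 or 2 of CD fed or replicate 2, 3 or 4 of HFD fed.

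**Figure D4:**
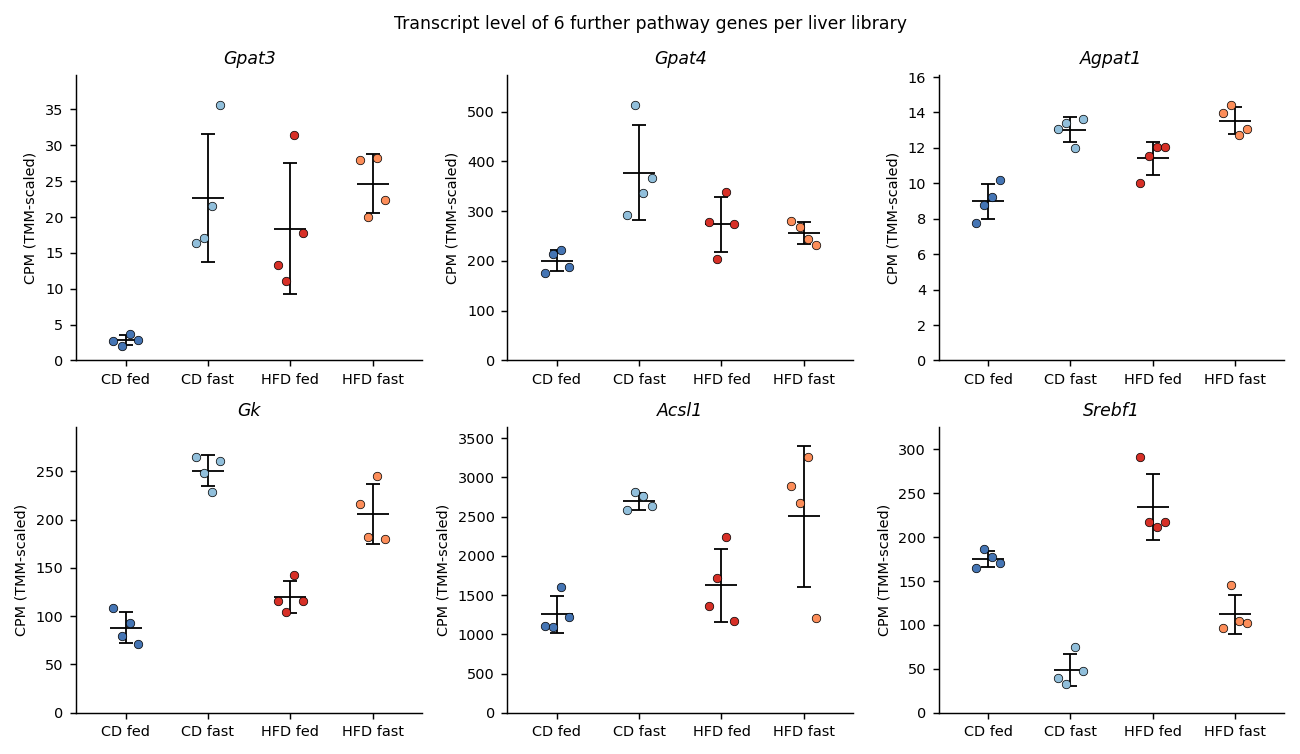
TMM-scaled CPM (linear axis from 0) of 6 further pathway genes in each library, by group. Points are libraries, marks and bars the group mean and SD (n = 4). *Gpat3* lies at 1.97 to 3.69 CPM in CD fed and at 11.1 CPM or more in the other groups.

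Of 7 genes of substrate supply, 5 passed the test with fasting in CD, 3 higher and 2 lower (25.2% of all genes passed). *Gk*, the glycerol kinase that makes glycerol-3-phosphate from circulating glycerol, rose from 88.2 ± 16.1 to 251 ± 16.3 CPM in CD (log2 change 1.51, SE 0.14, adjusted p = 5.78e-06) and from 120 ± 16.4 to 206 ± 31.0 CPM in HFD (log2 change 0.78, SE 0.13, adjusted p = 0.00329; SD, n = 4). No fed library of *Gk* reached a fasted library of its diet. *Aqp9*, the channel through which hepatocytes take up glycerol, rose with fasting by 0.38 in CD (adjusted p = 0.0374) and by 0.45 in HFD (adjusted p = 0.0396). The former call was lost without replicate 1 or 2 of CD fast or 1, 3 or 4 of CD fed, and the latter without replicate 3 or 4 of CD fed, 1, 2 or 3 of HFD fast or 1, 3 or 4 of HFD fed. Of the acyl-CoA synthetases, which activate fatty acids, *Acsl1* rose with fasting in CD (log2 change 1.10, SE 0.26, adjusted p = 0.00572), whereas *Acsl3* (-0.97, SE 0.19, adjusted p = 0.00195) and *Acsl5* (-0.56, SE 0.11, adjusted p = 0.00162) fell. *Acsl3* and *Acsl5* also fell with HFD in fed liver, by 0.82 (adjusted p = 0.0170) and 0.58 (adjusted p = 0.00489). The call of *Acsl3* there was lost without replicate 1 of CD fed or of HFD fed, just past the threshold in both fits (adjusted p of at most 0.0503).

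Of 8 regulators, 3 changed with fasting in CD (25.2% of all genes) and 3 in HFD (8.86%). *Srebf1*, which encodes the lipogenic factor SREBP-1c, fell from 175 ± 9.31 to 48.6 ± 18.3 CPM in CD (log2 change -1.85, SE 0.21, adjusted p = 2.79e-05) and from 235 ± 37.7 to 112 ± 22.2 CPM in HFD (log2 change -1.06, SE 0.20, adjusted p = 0.00624; SD, n = 4), and was higher in HFD than in CD in fasted liver (log2 change 1.21, SE 0.20, adjusted p = 0.00512, but 0.0556 with only the groups compared in the fit). *Mlxipl*, the carbohydrate-responsive factor ChREBP, fell with fasting by 0.99 in CD (adjusted p = 0.000176). Its change of -0.48 in HFD (adjusted p = 0.0424) lost the call in 7 of the 16 fits without a library, with an adjusted p of up to 0.142 without HFD fed replicate 1. The call was also lost with the replicate number as a block (adjusted p = 0.0625) and with total count scaling (adjusted p = 0.0537). The same held without a filter on low counts (adjusted p = 0.0557) and with only the groups compared in the fit (adjusted p = 0.0742). *Pparg* rose with fasting in HFD by 0.95 (SE 0.22, adjusted p = 0.0156), a call lost without HFD fed replicate 1 (adjusted p = 0.0525). *Ppargc1a*, which encodes the lipin 1 partner PGC-1α, rose with fasting in CD by 1.24 (SE 0.39, adjusted p = 0.0287). That call was lost without replicate 2 or 4 of CD fast or replicate 3 or 4 of CD fed, and the change was 0.71 without CD fast replicate 2. Of the phosphatase that dephosphorylates lipins, the catalytic *Ctdnep1* rose with fasting in CD by 0.21 (adjusted p = 0.0200), a call lost without CD fast replicate 1 (adjusted p = 0.0518), with total count scaling (adjusted p = 0.101) and without a filter on low counts (adjusted p = 0.0834), and its partner *Cnep1r1* was at 9.48 to 12.7 CPM in every library.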

How the data were processed

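Mouse liver RNA was measured by RNA-seq in 16 libraries (4 groups of 4). The deposited table holds raw counts per Ensembl gene, as the authors left them, whole and without normalization. To make them the authors enriched poly(A) RNA, prepared NEBNext Ultra II libraries, sequenced paired ends and counted with featureCounts after TopHat2 2.0.11 alignment to GRCm38, with CASAVA 1.8.4 also named in the submitters' processing notes. The strand setting of the counting is not given in the sources used here, so genes overlapping on opposite strands may share reads.

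Samples were grouped by their labels. Counts were fitted in R 4.3.3 with edgeR 4.0.16 (filterByExpr, TMM, 1 coefficient per group, 12 residual degrees of freedom), with quasi-likelihood tests and Benjamini-Hochberg adjustment over 15075 genes at a threshold of 0.05. On simulated data with 200 changed genes among 14910, for fasting in CD, edgeR recovered 81% with 2.99% false calls, limma-voom 79.5% with 3.64% and DESeq2 83% with 11.7%. These counts were drawn once, with a spread that followed the trend with level and not that of each gene. In the data 25.2% of all genes passed that comparison in edgeR. The rates thus check the code and are not error rates of the calls reported here. DESeq2 1.42.0, limma-voom (limma 3.58.1), other scalings and filters, the groups compared alone, a replicate block and leaving out each library were tried as alternatives. Shares per kb of exon (GENCODE M21 exon union) were compared with exact permutation tests written in Python 3.11.15, adjusted over 16 tests. Intervals cover 95%, the detection floor is 3 counts, and such floors cover counting error only. No 2 libraries of a group agreed within sampling noise.

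Promoter sequences are from RefSeq (GRCm38.p6), where 7 of the 9 genes matched with 11 start sites. The 9 genes and the pathway lists were chosen with earlier results of these data known, so their counts are descriptions. All 9 genes are named. Of the pathway lists, genes past the threshold in the fasting, diet or interaction comparisons were named, with *Mogat2* (not tested) and *Cnep1r1* added after their values were seen. For likeness, the 3 closest genes were named for those of the 9 genes called in the same comparisons.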

Additional observations from a re-analysis of the deposited data

Results flagged for a closer look

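The level of *Agpat2* in HFD fast replicate 4 was 120.656 CPM, far below the other 3 libraries of its group at 206, 214 and 220 CPM. It was picked out because its gap to the nearest library exceeded the critical value of Dixon's test, which chance passes in about 1 group in 20. It was the only such value among 52 groups of libraries examined. Without this library the fasting change of *Agpat2* in HFD was 0.42 on the log2 scale in place of 0.26 (and 0.17 without HFD fast replicate 2), and none of these passed the edgeR test.

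The response of *Gpat3* to fasting differed between the diets, with an interaction of -2.59 on the log2 scale (SE 0.44, edgeR adjusted p = 0.0113). The fasting change was 3.01 in CD, while the HFD fed libraries were already at 11.1 CPM or more. The interaction passed the test in all 16 fits that left out a library, with an adjusted p of at most 0.0279.

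The response of *Gpat4* differed as well, with an interaction of -1.01 (SE 0.23, adjusted p = 0.0344). This call was lost without replicate 2 or 4 of CD fast, 1, 2 or 4 of CD fed, 3 or 4 of HFD fast, or 1 or 3 of HFD fed, with an adjusted p of up to 0.0751 without HFD fed replicate 3. With the replicate number as a block it was lost too (adjusted p = 0.0508).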

How the results depend on the processing

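The calls of *Lpin1*, *Agpat3* and *Dgat1* with fasting in CD and of *Lpin1* with fasting in HFD held in all 16 fits that left out a library and under 9 other settings. The numbers of the 9 genes called moved with the tool, as did those of all genes. With DESeq2 they were 5 for fasting in CD (28.3% of all genes) and 3 in HFD (13.2%), 2 for HFD in fed (11.7%), 2 for HFD in fasted (13.0%) and 3 for the interaction (6.77%), and with limma-voom 2 for fasting in HFD (8.56%) and 1 for the interaction (2.37%). For the interaction, RLE scaling gave 1 (2.70% of all genes) and a CPM above 1 in at least 4 libraries 2 (3.98%). Total count scaling gave 2 for HFD in fed (8.83%), 0 for HFD in fasted (13.9%) and 1 for the interaction (2.92%). For fasting in CD, limma-voom added *Mogat1* (adjusted p = 0.0340, 24.5% of all genes). Total count scaling added *Gpam* there (adjusted p = 0.0268, 3673 genes called in all). HFD in fasted had 0 when only the groups compared were fitted (0.623% of all genes), and at an adjusted p under 0.01 HFD in fed (2.24%) and HFD in fasted (1.44%) had 0. Leaving out a library gave 3 to 4 for fasting in CD (18.7 to 26.0% of all genes), 1 to 2 for fasting in HFD (505 to 1533 genes called in all), 0 to 1 for HFD in fed (3.37 to 8.29%) and in fasted (3.51 to 8.90%) and 0 to 2 for the interaction (0.963 to 3.01%). The cause was not tested, other than that fewer libraries or a stricter threshold were used.

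With the replicate number as a block, 5 of the 9 genes passed for fasting in CD (26.2% of all genes) and 2 for fasting in HFD (9.55%), *Gpam* and *Mogat1* being added in CD and *Mogat1* in HFD. The block ended the calls of *Mlxipl* with fasting in HFD (adjusted p = 0.0625) and of the *Gpat4* interaction (adjusted p = 0.0508). Deviations of libraries with the same number had r from -0.24 to 0.66, over 0.1 in 8 of 24 pairs, and the highest was replicate 4 of HFD fed and HFD fast. Between CD fed and CD fast every library correlated best with its own number (r from 0.0523 to 0.11), between HFD fed and HFD fast 3 of 8 did. No label names a shared animal or batch, so the numbers were not taken as pairs in the main fit. A cut at 0.1 cannot decide this, and whether libraries of the same number share an animal or batch was not tested.

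The counts of pathway genes, whose alternatives were chosen after seeing the data, were 3 for fasting in HFD without a filter on low counts (3.72% of all genes) or with only the groups compared (6.95%). At an adjusted p under 0.01 they were 2 for fasting in HFD (2.20%), 2 for HFD in fed (2.24%), 1 for HFD in fasted (1.44%) and 0 for the interaction (0.206%). HFD in fasted had 7 with DESeq2 (13.0%), 5 with RLE (7.92%) or total count scaling (13.9%), 4 with a CPM above 1 in at least 4 libraries (9.36%), 0 with only the groups compared (0.623%) and 4 with the replicate block (8.56%), and the interaction had 4 with DESeq2 (6.77%). Without a library the ranges were 2 to 8 for fasting in HFD, 3 to 7 for HFD in fed, 2 to 5 for HFD in fasted and 1 to 3 for the interaction, beside the shares of all genes given above. Calls of single pathway genes were also lost without a filter on low counts (*Agpat4*, *Aqp9* and *Ctdnep1* with fasting in CD, *Plpp3*, *Aqp9* and *Mlxipl* with fasting in HFD, *Agpat1* and *Pcyt2* with HFD in fed), with only the groups compared (*Agpat4* and *Ppargc1a* with fasting in CD, *Plpp3*, *Aqp9* and *Mlxipl* with fasting in HFD, *Agpat1* and *Pcyt2* with HFD in fed, *Agpat4* and *Srebf1* with HFD in fasted), with total count scaling (*Ctdnep1*, *Mlxipl* and *Pcyt2* in the same comparisons), with upper quartile scaling (*Pcyt2*) and with limma-voom (*Ppargc1a*).

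*Agpat2* in HFD against CD fasted liver, 0.01 on the log2 scale, turned to -0.00408 with limma-voom and -0.00595 with the replicate block. Other changes turned sign when a library was left out, among them that of *Lpin1* with HFD in fasted liver, -0.49 with all libraries. They were *Agpat2* with fasting in CD (-0.21 to 0.0378) and with HFD in fasted liver (-0.0791 to 0.17), *Lpin1* and *Lpin3* with HFD in fasted liver (-0.84 to 0.0492 and -0.32 to 0.0811), *Lpin3* and *Dgat1* with fasting in HFD (-0.0245 to 0.11 and -0.0348 to 0.12), and *Dgat2* and *Mogat1* in the interaction (-0.0254 to 0.29 and -0.22 to 0.70). None of these passed the test.

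The share differences, in percentage points, kept their direction with a library left out for *Lpin1* with fasting in CD (-43.5 to -33.7), *Gpam* with HFD in fed (-19.4 to -15.2) and in fasted liver (6.69 to 9.46), *Agpat2* with fasting in CD (-14.0 to -8.99) and *Dgat2* with fasting in CD (-4.07 to -2.85) and HFD in fasted liver (2.20 to 3.42), but the exact p crossed 0.05 in some of these 3 against 4 tests. Those of *Lpin1* for HFD in fed (-0.514 to 9.31) and in fasted liver (-2.13 to 4.33), of *Agpat2* with fasting in HFD (-1.79 to 2.82, and 0.0538 as a share of counts) and of *Dgat2* with HFD in fed liver (-0.219 to 0.163) changed sign.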

Other observations

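Of 10 genes of the branch from phosphatidic acid and diacylglycerol to phospholipids, 1 changed with fasting in CD (25.2% of all genes passed), 0 with fasting in HFD (edgeR, 8.86% of all genes; 3 at an unadjusted p under 0.05, 25.6% of all genes) and 2 with HFD in fed liver (7.50% of all genes). *Pemt*, which makes phosphatidylcholine from phosphatidylethanolamine, averaged 251 ± 25.5 CPM fed and 191 ± 16.8 CPM fasted on CD, and 187 ± 4.24 CPM fed and 185 ± 20.1 CPM fasted on HFD (SD, n = 4). It fell by 0.40 on the log2 scale with fasting in CD (SE 0.09, edgeR adjusted p = 0.00645) and by 0.42 with HFD in fed liver (SE 0.09, adjusted p = 0.0130), the latter lost without CD fed replicate 2 (adjusted p = 0.0520). *Pcyt2*, the rate-limiting enzyme of phosphatidylethanolamine synthesis, averaged 577 ± 38.4 CPM fed and 493 ± 18.6 CPM fasted on CD. On HFD it averaged 465 ± 25.3 CPM fed and 404 ± 43.6 CPM fasted (SD, n = 4). Its libraries did not overlap for fasting in CD, HFD in fed or HFD in fasted liver, and only HFD in fed liver was called. There *Pcyt2* fell by 0.31 (adjusted p = 0.0377). That call was lost without CD fast replicate 4, CD fed replicate 1, 2 or 4, or any HFD fed replicate (adjusted p of 0.0516 to 0.118). It was also lost under 4 other settings (total count scaling, upper quartile scaling, no filter on low counts and only the groups compared), with an adjusted p of 0.0520 to 0.0912.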
